A study of Mus musculus with 6 samples.

Results

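Fibroblast growth factor (FGF) signalling was described here through 10 genes, the ligands Fgf1, Fgf2, Fgf7, Fgf9, Fgf10 and Fgf18 and the receptors Fgfr1, Fgfr2, Fgfr3 and Fgfrl1. They were taken by symbol, and all 10 were found among the 17909 genes listed in at least 1 library. The libraries were made from hepatic stellate cells, the vitamin A-storing pericytes of the liver sinusoid, taken from 24-week-old male C57BL/6 mice. In the HAS2_Tg group (replicates 4, 5 and 6) the mice carried a human HAS2 transgene under the alpha smooth muscle actin (ASMA) promoter, which is active in activated stellate cells and in smooth muscle. In the Has2_KO group (replicates 7, 8 and 9) loxP-flanked Has2 was removed from stellate cells by Lrat-Cre. All cells went through Nycodenz gradient isolation and depletion of Cd11b-bearing cells, then 4 h of attachment and 14 h of culture in 10% serum, and were profiled at day 1. Wild-type cells were not analysed here, and a difference between the groups cannot be assigned to the transgene or to the deletion. The labels do not say whether the 3 libraries of a group came from separate mice, so p-values measure the spread between these libraries.

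FGFs are secreted ligands that bind receptor tyrosine kinases together with heparan sulfate chains on the cell surface. The activated receptor phosphorylates the adaptor Frs2, which recruits Grb2 and Sos and starts the RAS-ERK cascade, and that cascade induces its own inhibitors, among them the Sprouty, Spred and Dusp genes. Fgfr1, Fgfr2 and Fgfr3 are kinases, whereas Fgfrl1 lacks the kinase domain. In liver, FGFs made by stellate and other mesenchymal cells are known to act on neighbouring epithelium, and FGF2 is a known mitogen of activated stellate cells.

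Which ligands a receptor binds depends on the exon that encodes the last part of the immunoglobulin loop nearest the membrane. The deposited files credit Fgfr2, the most abundant member, to 2 RefSeq transcripts that differ in this exon, a IIIb and a IIIc form. The IIIb exon is shown because FGF7 and FGF10 signal through that form, while FGF2 and FGF9 act mainly through IIIc forms. It is a coding exon of NM_201601 on the minus strand, at chr7:130199758-130199905 (GRCm38, GENCODE M21 transcript matched to the RefSeq name), and has 148 bases.
Fgfr2 IIIb exon: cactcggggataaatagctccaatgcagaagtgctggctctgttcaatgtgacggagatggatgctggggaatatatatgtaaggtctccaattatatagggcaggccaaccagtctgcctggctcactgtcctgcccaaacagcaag
The files give 1 value per gene, so the values of Fgfr2 below sum both forms and do not separate them.

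Total expected counts, the authors' estimates of reads per gene, were between 11961726 and 12423220 per library. Has2, the targeted gene, had 2571 counts over the transgenic libraries and 3 over the knockout libraries. This value is for the mouse gene, and whether reads of the human transgene were counted in it cannot be told. All 15 stellate cell markers were present in every library and took 0.751% to 0.766% of counts in HAS2_Tg and 0.543% to 0.573% in Has2_KO. Of these 15, 11 were higher in HAS2_Tg, 1 was lower and 3 did not pass (median log2 fold change 0.755). Of all genes tested 20.2% were higher. Ecm1 was at 2331 ± 73.5 CPM (counts scaled to library depth) against 1066 ± 10.4 and Reln at 1575 ± 231 against 1591 ± 74.9 (SD, n = 3). Of the macrophage, endothelial, hepatocyte and cholangiocyte markers tested, 15 of 15, 16 of 16, 7 of 8 and 4 of 4 were lower in HAS2_Tg. Of all 13014 genes tested 20.5% were lower. Markers at or near 0 in HAS2_Tg could pass the filter on low counts only through Has2_KO, and so could hardly come out as higher. The 16 macrophage and Kupffer cell markers took 0.00143% to 0.00161% of counts in HAS2_Tg, where Clec4f and Timd4 were at 0, and 0.0657% to 0.0699% in Has2_KO. The 16 endothelial markers took 0.00243% to 0.00281%, with Emcn at 0, against 0.113% to 0.123%. The 13 hepatocyte markers found took 0.00227% to 0.00242%, with Serpina1c and Hnf4a at 0, against 0.00643% to 0.00838%, and the 9 cholangiocyte markers 0.000319% to 0.000349%, with Krt18, Epcam and Cftr at 0, against 0.003% to 0.00335%. Trf, the most abundant hepatocyte marker, did not pass (22.1 ± 0.77 against 25.6 ± 2.63 CPM, n = 3, adjusted p = 0.11), and the untested cholangiocyte marker Krt7 was at 0.117 CPM in HAS2_Tg and 0.0253 in Has2_KO. The portal fibroblast and vascular smooth muscle markers took 0.171% to 0.201% in HAS2_Tg and 0.0356% to 0.0372% in Has2_KO, but 5 were higher and 4 lower of 10 tested. The smooth muscle genes Myh11 (log2 fold change 3.55) and Mustn1 (1.53) were among the higher. The portal fibroblast markers Thy1 (-2.17), Cd34 (-2.13), Dpt (-1.35) and Fbln2 (-0.69) were the lower. Thy1 and Cd34 passed the filter on low counts through Has2_KO alone. The portal fibroblast marker Entpd2 (-0.63) did not pass. The untested Gli1 (1.03 CPM in HAS2_Tg against 0.608 in Has2_KO) and Pi16 (0.526 against 0.177) went the other way. The 8 mesothelial markers took 0.0242% to 0.029% and 0.0231% to 0.025%, nearly all of it Efemp1, which was higher in HAS2_Tg (log2 fold change 0.35), while Wt1 was lower (-4.70). Krt7 and the portal fibroblast markers were chosen after their values were seen. HAS2_Tg replicate 4 stood apart from replicates 5 and 6 (chi-square per degree of freedom 22.8 and 31.6, against 6.24 between replicates 5 and 6 and at most 3.17 in Has2_KO). Many of these marker levels differed between the same groups as the genes described below, while Reln and Trf did not pass and the mesothelial shares overlapped. The part of the marker levels in the differences described below was not tested. In such bulk samples fewer cells of a type and less RNA per cell cannot be told apart.

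Fgfr2 was higher and Fgfr1, Fgf2 and Fgf7 were lower in HAS2_Tg than in Has2_KO. Of the 10 members 8 passed the filter on low counts, and of these 1 rose, 3 fell and 4 did not pass the test (edgeR's quasi-likelihood test, Benjamini-Hochberg adjusted p under 0.05, transgenic minus knockout). Of all 13014 genes tested 40.7% were called, 20.2% as higher and 20.5% as lower, so 4 called of 8 is near the share of all genes. Fgf7, with fewer than 10 counts in each transgenic library, passed the filter through Has2_KO alone. The median log2 fold change was 0.07 over the 8 members and -0.01 over all genes. Scaling to total counts instead of the trimmed mean of M values (TMM) moved the median of all genes to -0.18 and the split of calls from 2625 higher and 2673 lower to 1477 and 4827, while the 4 member calls were unaltered.

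**Figure D1:**
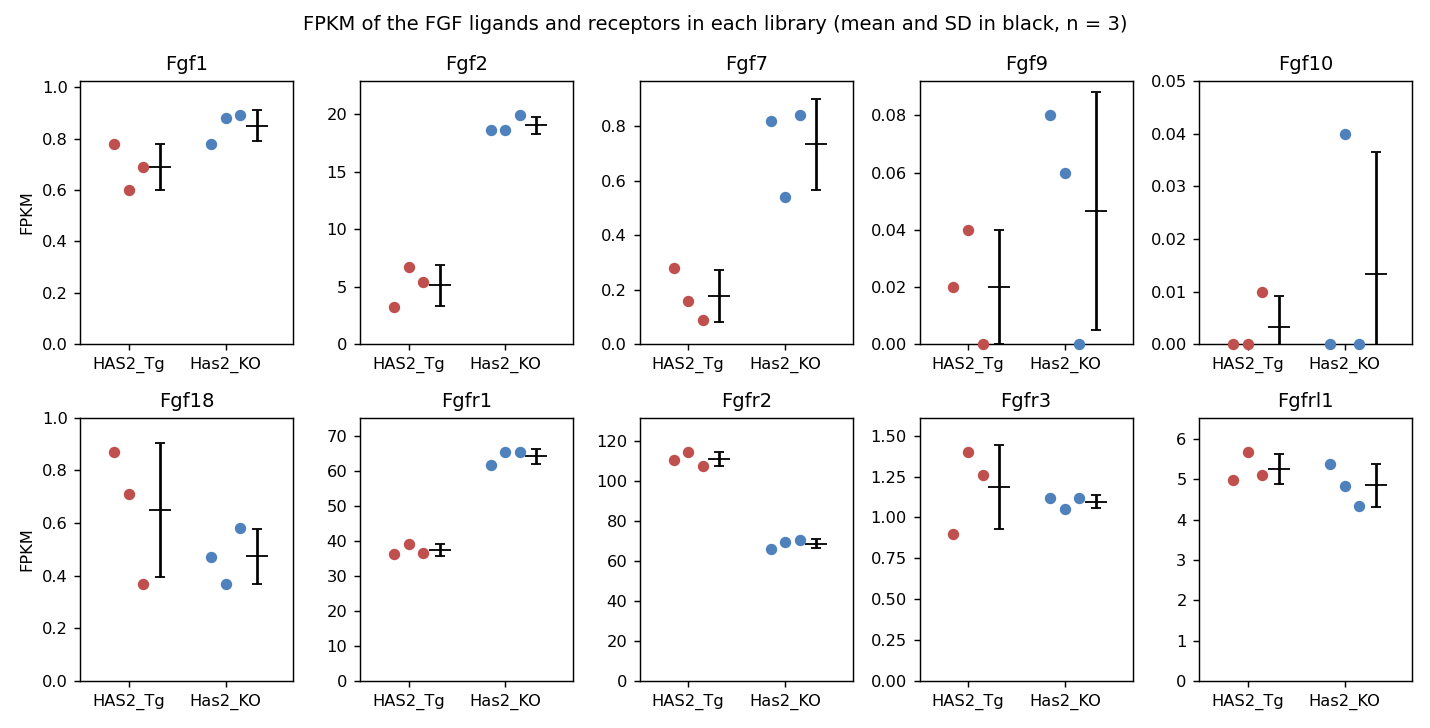
FPKM (fragments per length and depth, from 0, 1 scale per gene) of the 10 genes in each library, as points by group, with the mean and SD (n = 3) in black and bars cut at 0. For Fgf2, Fgf7, Fgfr1 and Fgfr2 the points of the groups do not overlap, while Fgf9 and Fgf10 stay at or below 0.08 FPKM. The share of all genes tested without overlap was worked out in CPM only, where it was 52.2%.

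FPKM corrects for gene length and so allows levels of different genes to be set side by side. In Has2_KO the order was Fgfr2 (68.7 ± 2.22 FPKM), Fgfr1 (64.2 ± 2.15), Fgf2 (19.1 ± 0.748), Fgfrl1 (4.85 ± 0.525), Fgfr3 (1.10 ± 0.0404), Fgf1 (0.85 ± 0.0608), Fgf7 (0.733 ± 0.168), Fgf18 (0.473 ± 0.105), Fgf9 (0.0467 ± 0.0416) and Fgf10 (0.0133 ± 0.0231; SD, n = 3). In HAS2_Tg it was Fgfr2 (110.8 ± 3.44 FPKM), Fgfr1 (37.4 ± 1.66), Fgfrl1 (5.26 ± 0.372), Fgf2 (5.12 ± 1.77), Fgfr3 (1.19 ± 0.258), Fgf1 (0.69 ± 0.09), Fgf18 (0.65 ± 0.255), Fgf7 (0.177 ± 0.0961), Fgf9 (0.02 ± 0.02) and Fgf10 (0.0033 ± 0.0058). Neighbours whose libraries overlapped were Fgf1 and Fgf7, Fgf7 and Fgf18, and Fgf9 and Fgf10 in Has2_KO, and Fgfrl1 and Fgf2, Fgf1 and Fgf18, and Fgf9 and Fgf10 in HAS2_Tg. The level of Fgf2 rests on a gene model of 695 bases in the files, against 2672 to 4572 bases for Fgf1, Fgf7, Fgf9 and Fgf10.

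Fgf2, or basic FGF, is a heparin-binding ligand of the IIIc receptor forms that leaves cells without a signal peptide. Its expected counts were 26, 54 and 44 in HAS2_Tg replicates 4, 5 and 6, and 154, 155 and 165 in Has2_KO replicates 7, 8 and 9. The highest transgenic library lay well below the lowest knockout library, and replicate 4 was the lowest of all. In CPM the level was 3.63 ± 1.20 against 12.02 ± 0.497 (SD, n = 3), a log2 fold change of -1.72 (SE 0.19, adjusted p = 2.82e-06). Leaving out 1 library at a time kept it between -1.95 and -1.49.

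Fgf2 lies on the plus strand of chromosome 3 from 37348477 to 37410106 (GRCm38), and its exons overlap those of Nudt6, a Nudix hydrolase gene on the opposite strand. The annotation (GENCODE M21) places 640 exon bases in both genes, none of them in the 511 coding bases of Fgf2. These 640 bases were taken over all annotated exons of Fgf2. The counted gene model has 695 bases, and how much of it is shared with Nudt6 was not resolved. Nudt6, named after its values were seen, had 62, 87 and 83 counts in HAS2_Tg and 202, 187 and 227 in Has2_KO, a log2 fold change of -1.20 (SE 0.14, adjusted p = 6.48e-06). Both genes of the overlapping pair were thus lower in HAS2_Tg. No source used here says whether the counting used strand, so reads from any shared bases that were counted cannot be told apart. A gene model on the same strand as Fgf2, Gm43439, shares 255 exon bases with it, 183 of them coding, and is not among the genes listed.

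Fgf7, keratinocyte growth factor, is made by mesenchymal cells and acts on epithelium through the IIIb form of Fgfr2. Its expected counts were 9.15, 4.99 and 3.01 in HAS2_Tg and 27.14, 18.02 and 28.01 in Has2_KO. All transgenic values were below all knockout values, but the summed counts were only 17 and 73. The level was 0.502 ± 0.278 CPM against 1.85 ± 0.423 CPM (SD, n = 3), a log2 fold change of -1.87 (SE 0.39, adjusted p = 0.00127). Leaving out 1 library at a time gave -2.38 to -1.56. On the log2(FPKM + 1) scale, where the pseudocount exceeds the level of the gene, the difference was -0.56 with no filter.

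Fgf1, acidic FGF, binds all 4 kinase receptors. It had 37, 28.18 and 33.05 counts in HAS2_Tg and 38.01, 43 and 43.27 in Has2_KO, and in CPM the groups overlapped, with 2.88 ± 0.439 against 3.14 ± 0.221 (log2 fold change -0.13, SE 0.20, adjusted p = 0.653). Fgf18, a ligand of the Fgf8 subfamily known for its roles in skeletal and lung development, had 16, 13 and 7 counts in HAS2_Tg and 9, 7 and 11 in Has2_KO. The lowest transgenic library equalled the lowest knockout library, and the difference did not pass (log2 fold change 0.62, SE 0.39, adjusted p = 0.224).

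Fgf9 and Fgf10 were near the limit of detection and failed the filter on low counts. Fgf9, which signals mainly through IIIc receptors, had 1, 2 and 0 counts in HAS2_Tg and 4, 3 and 0 in Has2_KO, so 1 library of each group lacked it. The ratio of knockout to transgenic sums, scaled by TMM-adjusted totals, was 2.01 (95% exact interval 0.46 to 12.1), which covers counting error only and includes no difference. Fgf10, the mesenchymal partner of Fgfr2 IIIb in lung and limb budding, was listed in HAS2_Tg replicate 6 (0.57 counts) and Has2_KO replicate 8 (2.33 counts) alone. Both group sums were at or under 3 counts, so no fold is given, and no difference was detectable at this depth.

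**Figure D2:**
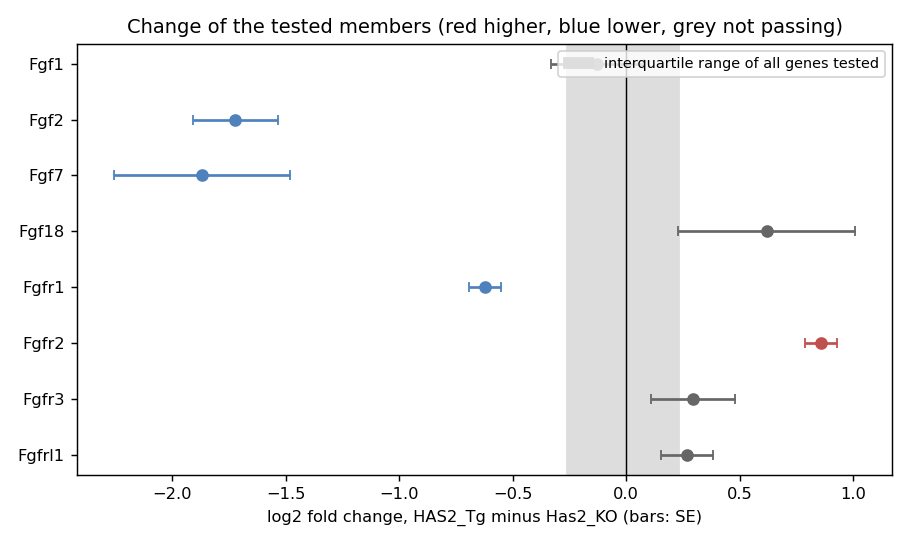
Log2 fold change, HAS2_Tg minus Has2_KO, of the 8 tested members, with SE as bars, where red passed as higher, blue as lower and grey did not pass. The shaded band runs from the lower to the upper quartile of all genes tested, -0.26 to 0.23, and Fgf2, Fgf7, Fgfr1 and Fgfr2 lie outside it with their bars, while the bar of Fgf18 touches it.

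Fgfr2 was the member with the smallest adjusted p and the 1 receptor that rose. Its expected counts were 6888, 7112 and 6861 in HAS2_Tg and 4269, 4497 and 4548 in Has2_KO. The groups were far apart and each varied little, with 612.5 ± 11.3 against 337.5 ± 11.7 CPM (SD, n = 3). The log2 fold change was 0.86 (SE 0.07, adjusted p = 1.36e-07), and it was 0.83 to 0.88 with 1 library left out at a time. The gene spans 130162451 to 130266808 on the minus strand of chromosome 7 (GRCm38).

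Fgfr1, the main FGF receptor of many mesenchymal cells, moved the other way. It had 2135, 2310 and 2205 counts in HAS2_Tg and 3795, 4046 and 4003 in Has2_KO. No transgenic library came near a knockout library, with 195.2 ± 5.42 against 300.3 ± 10.2 CPM (SD, n = 3). The log2 fold change was -0.62 (SE 0.07, adjusted p = 5.09e-06), and -0.65 to -0.61 with 1 library left out at a time. Fgfr1 lies on the plus strand of chromosome 8 from 25518759 to 25575718 (GRCm38), and 164 of its exon bases are shared with an opposite-strand gene model, Gm16159.

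The make-up of the receptor transcripts therefore differed. Within each library the FPKM of Fgfr2 was 3.05, 2.91 and 2.93 times that of Fgfr1 in HAS2_Tg replicates 4, 5 and 6, and 1.07, 1.06 and 1.07 times in Has2_KO replicates 7, 8 and 9. Fgfr1 and Fgfr2 were close to parity in the bulk Has2_KO libraries, whereas Fgfr2 dominated in the HAS2_Tg libraries. As a share of the summed FPKM of Fgfr1, Fgfr2, Fgfr3 and Fgfr4, Fgfr2 took 74.1% ± 0.587 in HAS2_Tg and 51.2% ± 0.146 in Has2_KO, and Fgfr1 took 25.02% ± 0.452 and 47.9% ± 0.185 (SD, n = 3). In FPKM the sum of Fgfr1 and Fgfr2 differed much less than their ratio. It was higher in HAS2_Tg, at 146.7, 153.7 and 144.2 FPKM, against 127.9, 134.9 and 135.9 in Has2_KO. FPKM carries no correction for composition, and the sum was not worked out in TMM-scaled CPM. These shares and ratios restate the single-gene levels and were not tested.

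**Figure D3:**
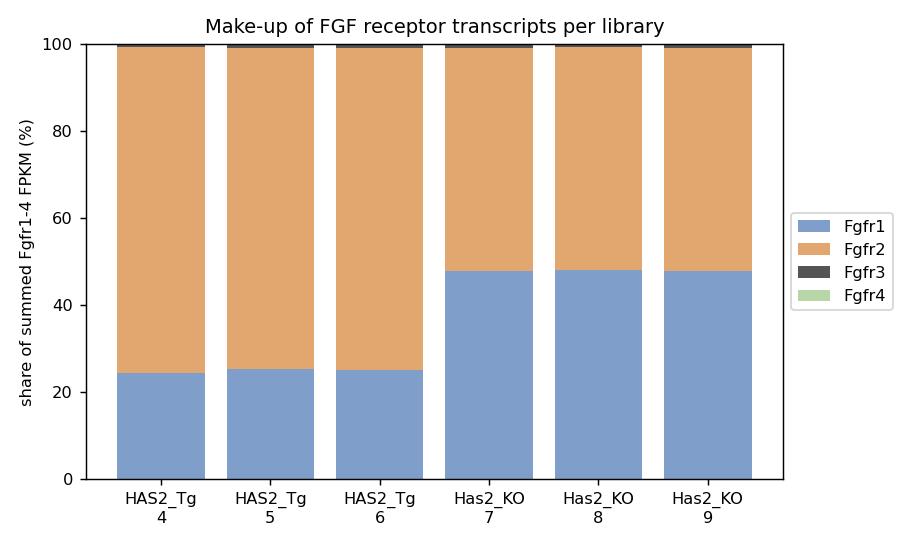
Share of the summed FPKM of the 4 FGF kinase receptors (in percent, from 0 to 100) taken by each receptor, 1 stacked bar per library. Fgfr2 fills 73.7% to 74.8% of the HAS2_Tg bars and 51.1% to 51.4% of the Has2_KO bars, Fgfr3 stays under 1% and Fgfr4 is too rare to see.

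Fgfr3, a kinase receptor best known for restraining bone growth, was a minor receptor in both groups. It had 45, 69 and 63 counts in HAS2_Tg and 58, 52 and 57 in Has2_KO, with replicate 4 below and replicates 5 and 6 above the knockout libraries. In CPM the levels were 5.19 ± 1.03 and 4.23 ± 0.253, and the difference did not pass (log2 fold change 0.29, SE 0.18, adjusted p = 0.221). Gene model G630022F23Rik on the opposite strand shares 998 exon bases with Fgfr3. Fgfrl1, the receptor without a kinase domain, had 150, 170 and 154 counts in HAS2_Tg and 166, 153 and 137 in Has2_KO. After TMM scaling its groups did not overlap (13.9 ± 0.79 against 11.6 ± 1.08 CPM), in FPKM they did, and the test was not passed (log2 fold change 0.27, SE 0.12, adjusted p = 0.0799). Of all genes tested, 52.2% did not overlap between groups in CPM, 25.2% with HAS2_Tg higher and 26.9% with HAS2_Tg lower. Fgfr4, the hepatocyte receptor for FGF15/19 with beta-klotho, summed to 10 counts in HAS2_Tg and 4 in Has2_KO.

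The files also give a length per gene, averaged by the authors' software over the transcripts of a gene, which can vary with the mix of transcripts. For Fgfr1, credited to 3 transcripts, it was 4856 to 4872 bases in HAS2_Tg and 4896 to 4932 in Has2_KO, without overlap. The share of all genes without overlap in length was not worked out, and the difference was not tested. For Fgfr2 it was 5129 to 5170 and 5164 to 5173 bases, and for Fgfrl1 2462 to 2499 and 2486 to 2548 bases, both overlapping. Fgfr3 ranged from 4065 to 4110 and from 3960 to 4174 bases. The transcripts behind these lengths were not resolved here.

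Lrat, Arhgap1 and Bmf had the profiles most like that of Fgfr2, with Pearson correlations of 0.9998, 0.9996 and 0.9995 of log2(CPM + 1) over the 6 libraries. Lrat esterifies retinol for storage and is a defining gene of stellate cells. For Fgf2, the ligand with the smallest adjusted p, they were Nhsl1, Ntm and Lifr, all at 0.998. With 2 groups of 3 libraries such values mostly reflect the group difference. Of 9233 genes with at least 10 CPM, 940 reached 0.95 with Fgfr2 and 652 with Fgf2.

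Of the other 17 genes of the FGF family, 12 were listed and Fgf12 alone was tested. Fgf12, a family member that stays inside the cell and binds sodium channels, had 161, 135 and 122 counts in HAS2_Tg and 56.1, 68.76 and 75.98 in Has2_KO. The groups were separate (12.3 ± 1.94 against 5.10 ± 0.78 CPM, log2 fold change 1.27, SE 0.16, adjusted p = 1.41e-05). Fgf23, the bone hormone of phosphate balance, had 1, 0 and 1 counts in HAS2_Tg and 8, 11 and 5 in Has2_KO and failed the filter. The scaled ratio of the sums, 24 to 2, was 10.4, and its 95% exact interval of 2.57 to 90.5 covers counting error only, not the spread between libraries. Fgf11 summed to 18 and 8 counts and Fgf13 to 5 and 6. The klotho co-receptors Kl and Klb were below the filter.

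Heparan sulfate carriers and other partners at the cell surface changed in both directions, with more genes higher in HAS2_Tg than lower. Of 15 tested co-receptors and carriers 8 rose and 4 fell (80% called). Of all genes 40.7% were called, 20.2% as higher and 20.5% as lower. The median log2 fold change was 0.41, against -0.01 over all genes. This list and the pathway lists below were chosen with earlier results of these data known. Their shares are descriptions and do not test for an excess over all genes. The glypicans Gpc6 (1.23, SE 0.10) and Gpc4 (1.05, SE 0.09), the syndecan Sdc2 (0.91, SE 0.08) and Fgfbp3, which carries FGFs away from the matrix (1.26, SE 0.18), rose. Flrt2 (-3.75, SE 0.28) and Flrt1 (-1.67, SE 0.41), membrane proteins that bind FGF receptors and could pass the filter only with the Has2_KO libraries, the syndecan Sdc4 (-0.77, SE 0.08) and N-cadherin, Cdh2 (-0.35, SE 0.07), fell. Endothelial and macrophage markers fell and 11 of 15 stellate cell markers rose in the same libraries, and a link to the carriers was not tested.

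The enzymes that pattern heparan sulfate, and so its affinity for FGFs, changed in both directions. Of 14 tested 5 rose and 3 fell (57.1% called, against 40.7% of all genes; median log2 fold change 0.16). The 6-O-sulfotransferases Hs6st2 (26.1 ± 1.07 against 5.07 ± 0.451 CPM, log2 fold change 2.36, SE 0.12, n = 3, adjusted p = 3.92e-10) and Hs6st1 (1.11, SE 0.09) rose. The 3-O-sulfotransferases Hs3st3b1 (0.96, SE 0.08) and Hs3st3a1 (0.69, SE 0.09) also rose. Sulf1, which removes 6-O-sulfates outside the cell, fell from 17.7 ± 0.953 CPM in Has2_KO to 3.70 ± 0.177 in HAS2_Tg (n = 3, log2 fold change -2.25, SE 0.13, adjusted p = 2.81e-09). The N-sulfotransferase Ndst2 (-0.49) and the epimerase Glce (-0.33) fell as well. Sulf2, chosen after its value was seen, had 0.03 (SE 0.07).

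**Figure D4:**
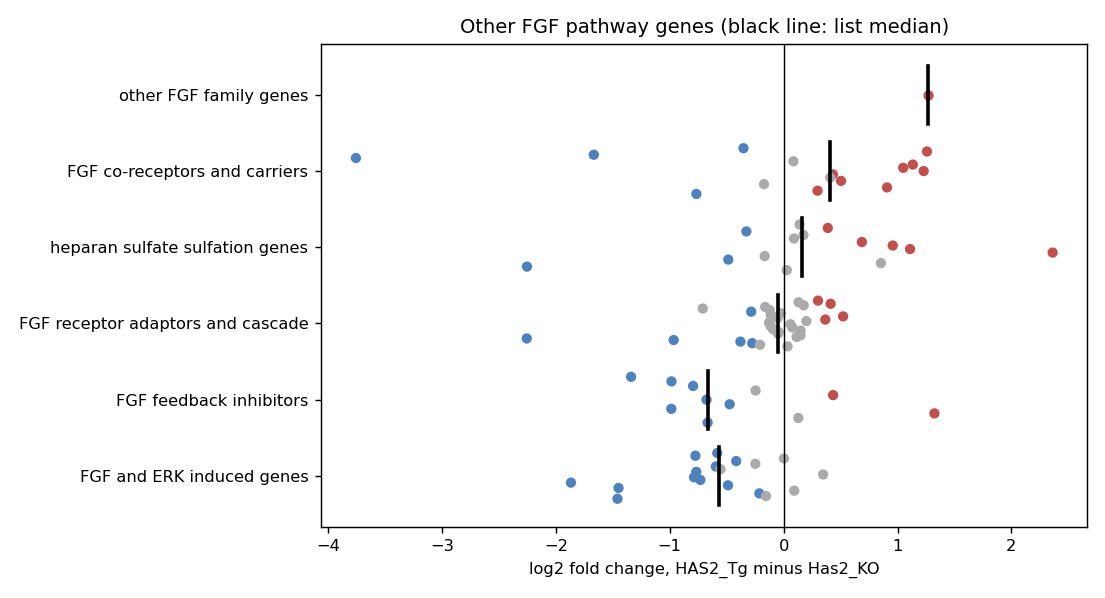
Log2 fold change, HAS2_Tg minus Has2_KO, of each tested gene in 6 lists of other FGF pathway genes (1 point per gene, spread vertically for visibility), with red for higher, blue for lower, grey for not passing and a black line at the list median. The medians of the feedback inhibitors and the ERK-induced genes lie at -0.67 and -0.57, and that of the adaptors and cascade kinases at -0.05.

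Of the adaptors and cascade kinases 30 were tested, of which 4 rose, 5 fell and 21 did not pass (30% called, against 40.7% of all genes; median log2 fold change -0.05). Among those that rose were the adaptor Gab1 (0.52, SE 0.08), the kinase Akt1 (0.30) and the GTPase Hras (0.37). The ribosomal S6 kinases Rps6ka1 (-2.26, SE 0.22), Rps6ka2 (-0.97, SE 0.12) and Rps6ka3 (-0.38) and the adaptor Shc1 (-0.28) fell. With total counts in place of TMM the list split into 2 higher and 13 lower, and Hras (adjusted p = 0.0705) and Akt1 (adjusted p = 0.188) no longer passed, so the balance of this list depends on scaling. Rps6ka3 did not pass without Has2_KO replicate 7 or 9, nor did Akt1, and Shc1 did not without replicate 9. Without HAS2_Tg replicate 4 the list had 7 higher, without Has2_KO replicate 7 it had 3 lower, and without replicate 9 it had 2 lower. Frs2 and Grb2, chosen after their values were seen, had -0.03 (SE 0.11) and -0.05 (SE 0.08).

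Feedback inhibitors of the pathway were mostly lower in HAS2_Tg. Of 11 tested 7 fell and 2 rose (median log2 fold change -0.67, 81.8% called, against 40.7% of all genes and 20.5% as lower). The list was chosen with earlier results of these data known, so this share is a description only. HAS2_Tg replicate 4, the library that stood apart, was the lowest of its group in 6 of the 7 that fell, and without it 9 fell and 2 rose. The ERK phosphatases Dusp4 (-1.34, SE 0.13) and Dusp6 (53.4 ± 0.28 CPM in Has2_KO and 30.8 ± 3.56 in HAS2_Tg, log2 fold change -0.79, SE 0.09, n = 3, adjusted p = 5.66e-06) fell, as did Spred1 (-0.68, SE 0.08) and Spred3 (-0.99, SE 0.12). Spry1, a Sprouty inhibitor, went the other way with 178.6 ± 19.8 against 71.3 ± 3.02 CPM (n = 3, log2 fold change 1.32, SE 0.09, adjusted p = 1.34e-08). Il17rd, also called Sef, rose as well (0.43, SE 0.12), but did not pass with total counts (adjusted p = 0.0799). Of the other Sprouty genes, chosen after their values were seen, Spry4 fell by 0.67 (SE 0.11) on the log2 scale and Spry2 had 0.13 (SE 0.08).

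Genes listed as FGF and ERK induced were lower in HAS2_Tg or did not pass. The list also holds Elk1, Elk3 and Elk4, factors that ERK regulates as proteins, of which Elk3 fell (-0.42) and the others did not pass. Of 18 tested 12 fell, 0 rose and 6 did not pass (median log2 fold change -0.57, 66.7% called, against 40.7% of all genes and 20.5% as lower). Earlier results of these data were known when the list was chosen, so the share is a description only. HAS2_Tg replicate 4 was the lowest of its group in 10 of the 12, and without it 13 fell and 1 rose. Hmga2, an architectural chromatin protein (-1.87, SE 0.11), Plaur, the urokinase receptor (-1.46, SE 0.11), Ier3 (-1.45, SE 0.08) and the AP-1 subunit Fosl2 (-0.73, SE 0.09) led by adjusted p. The ETS factor Etv5, a common readout of FGF signalling, was at 12.3 ± 2.29 CPM in HAS2_Tg and 21.0 ± 1.42 in Has2_KO (n = 3, log2 fold change -0.77, SE 0.13, adjusted p = 0.000214). Of its relatives, Etv1 (-0.59, SE 0.12) fell and Etv4 (-0.55, SE 0.39, adjusted p = 0.278) did not pass. Egr1 (-0.77, SE 0.11) and Ccnd1 (-0.58, SE 0.08) fell too. Fos (0.35, SE 0.17, adjusted p = 0.122) and Mcl1 (0.09, SE 0.07) had positive values but did not pass. Etv5, Etv1, Etv4, Egr1, Ccnd1, Fos, Mcl1 and the Elk genes were chosen after their values were seen. These genes respond to many inputs of ERK. In the same libraries macrophage and endothelial markers fell and 11 of 15 stellate cell markers rose, and a link to these genes was not tested.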

How the data were processed

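RNA was sequenced on the BGISEQ-500 in 6 libraries, 3 per group. RSEM (no version stated) and mm10 are named, per the submitters' processing notes. The authors deposited, per the file headers, an expected count (estimated reads per gene, not always whole), an FPKM value to 2 decimals and a length (other values, in bases) for each gene. Identifiers were named through the RefSeq table of GRCm38, the same assembly as mm10, and 17857 of 17909 matched. A gene missing from a file was set to 0, in 12658 cells. Same-group libraries differed by more than sampling noise (chi-square per degree of freedom 2.31 to 31.6), most with HAS2_Tg replicate 4. Expected counts were rounded, filtered with filterByExpr and TMM-scaled, and edgeR fitted the robust quasi-likelihood model; the SE is the log2 fold change over the root of F. Depth limits genes with few counts. The script was tested on simulated data. Alternatives were other scalings, filters and thresholds, DESeq2, limma on FPKM and each library left out.

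The members and gene lists were chosen with earlier results of these data known. The text names Has2, all members, other FGF genes with at least 10 counts, up to 4 called genes per list and direction by adjusted p, and 2 markers per list by level, some of which are not printed. The software was DESeq2 1.42.0, limma 3.58.1 and edgeR 4.0.16 in R 4.3.3, with pandas 2.3.3 and scipy 1.17.1 in Python 3.11.15.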

Additional observations from a re-analysis of the deposited data

How the results depend on the processing

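No paired analysis was possible because the groups share no replicate numbers. No result reversed. The calls of Fgf2, Fgfr1 and Fgfr2 held under all 15 alternatives and that of Fgf7 under the 12 that tested it. Fgf1, Fgf18, Fgfr3 and Fgfrl1 passed under none that tested them, and Fgf9 and Fgf10, which failed the filter, were not called by edgeR without it (adjusted p = 0.548 and 0.816). Genes called ranged from 3729 to 6304.

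With no low-count filter, with the DESeq2 Wald test and with limma on log2(FPKM + 1) without a filter, 1 other FGF family gene, Fgf23, was called lower. With the stricter filter 2 co-receptors and carriers were lower, as fewer genes were tested. Adaptors and cascade genes called higher were 2 with total counts and 1 in each of the 3 limma fits, and those called lower were 13 with total counts, 12 and 12 with limma on log2(FPKM + 1) and log2(FPKM + 0.1), 11 with limma without a filter and 3 at an adjusted p of 0.01. With 1 library left out at a time they ranged from 3 to 7 higher and from 2 to 6 lower. Feedback inhibitors called higher were 1 with total counts and 1 in each limma fit. ERK-induced genes called higher ranged from 0 to 1 with 1 library left out, the 1 being without HAS2_Tg replicate 4. Total counts and FPKM carry no correction for composition, and the cause of these shifts was not tested.

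Shares of receptors by expected counts in place of FPKM were 24.0% for Fgfr1 and 75.3% for Fgfr2 in HAS2_Tg, and 46.8% for Fgfr1, 52.6% for Fgfr2, 0.66% for Fgfr3 and 0.0157% for Fgfr4 in Has2_KO. Counts favour longer genes.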
